A study of Homo sapiens with 16 samples.

Results

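The response of NCI-H929 cells, a human multiple myeloma cell line, to knockout of p300 was described from 7 libraries of bulk RNA sequencing, out of 16 in the series. They are 4 libraries labelled NTC, the control, and 3 libraries labelled p300 KO, replicates 2, 3 and 4. KO replicate 1 was left out by a rule on its mitochondrial reads and serves below only as a check. All 8 libraries of this experiment came from the same cell line, grown in RPMI medium with serum, and are labelled as 1 batch. The sources used here do not say how the knockout was made, whether the KO cells were 1 clone or a pool, or whether replicates were separate cultures. If they were not, the p-values rest on technical spread alone. If the KO cells were 1 clone, traits of that clone cannot be told apart from effects of the knockout. The response below therefore means the difference between the KO and NTC libraries.

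The protein p300 is an acetyltransferase encoded by EP300. With its close relative CBP, encoded by CREBBP, it is recruited by transcription factors to enhancers and promoters, where it acetylates histones and other proteins and binds acetylated lysine through a bromodomain. Myeloma cells are malignant plasma cells, antibody-secreting B cells whose survival in culture is known to depend on the transcription factor IRF4 and commonly on MYC.

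The 7 libraries held between 20.7 M and 23.1 M counts (M, mega), of which between 18.3 M and 20.7 M fell in nuclear genes, on which all values below rest. Levels are given as CPM (counts per M nuclear counts, scaled with TMM), so they compare libraries, not genes of different length. Levels summed over a class of genes or over cell markers, and the levels of single cell markers beside such sums, are per M nuclear counts without TMM. Mitochondrial genes took 8.91% to 10.3% of the counts in NTC and 10.2% to 11.4% in KO, a difference of 1.14 percentage points (two-sided exact permutation test, p = 0.0857, where 4 libraries against 3 allow 0.0286 at best). In KO replicate 1 they took 47.7%. In bulk samples, fewer cells of a kind and less RNA per cell cannot be told apart.

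EP300 itself was read first. It was measured at 119, 110.5, 108 and 113 CPM in NTC and 45.3, 40.6 and 44.4 CPM in KO, and at 58.8 CPM in KO replicate 1. The groups did not overlap, and the log2 fold change of KO over NTC was -1.37 ± 0.06 (SE, n = 4 and 3, adjusted p = 1.51e-24, edgeR's quasi-likelihood test with Benjamini-Hochberg adjustment, as throughout). EP300 RNA thus remained at a reduced level in every KO library. Such counts do not show whether the remaining RNA encodes a working protein. CREBBP moved the other way, at 61.9, 61.4, 57.7 and 63 CPM in NTC and 78.5, 72.2 and 76.8 CPM in KO, again without overlap, with a log2 fold change of 0.31 ± 0.06. MYC stood at 118, 107, 104 and 108 CPM in NTC and 66, 57.4 and 58 CPM in KO and IRF4 at 631, 620.3, 592 and 585 CPM in NTC and 462, 443 and 444 CPM in KO. Both fell, MYC by 0.85 and IRF4 by 0.43 on the log2 scale, and in both every KO library lay under every NTC library.

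**Figure D1:**
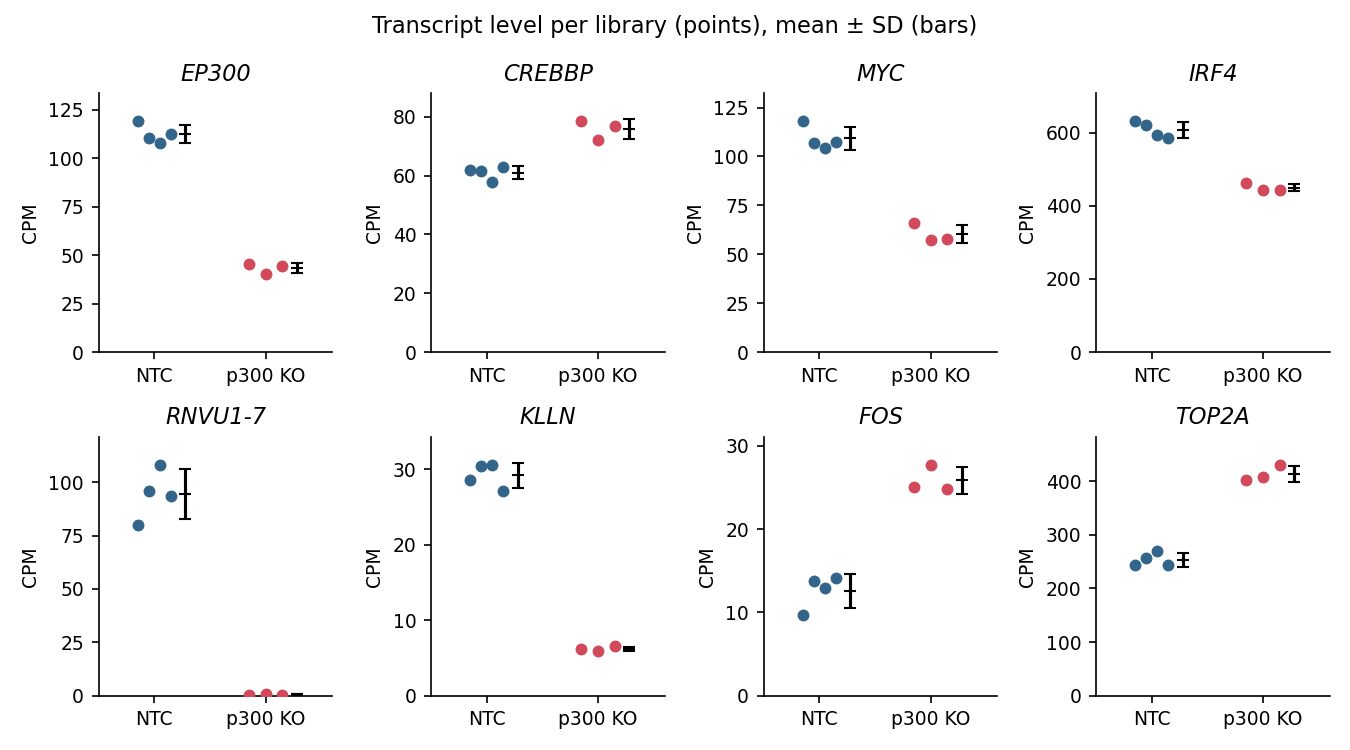
CPM (y axis) of 8 genes in each NTC and p300 KO library (points), with the mean ± SD beside them. EP300, MYC, IRF4, RNVU1-7 and KLLN lay lower in all 3 KO libraries than in any of the 4 NTC libraries, and CREBBP, FOS and TOP2A lay higher.

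The response was broad, and its large changes were nearly all decreases. Of 17671 nuclear genes tested, 7244 (41.0%) passed an adjusted p of 0.05, with 3378 higher (19.1%) and 3866 lower (21.9%) in KO. The libraries of the groups did not overlap for 7424 genes (42.0%). Among calls of 2-fold or more (5.91% of the genes tested), 992 genes were lower (5.61%) and 53 were higher (0.3%). Without KO 2, 87 genes were higher by 2-fold or more. The median log2 fold change over all genes tested was 0.00. With KO replicate 1 included, 2917 genes were called, 1008 higher and 1909 lower, every one of them also called in the same direction without it. The 2-fold decreases stayed in excess there, with 649 genes lower and 37 higher. Under upper quartile scaling, 38.2% of the calls were higher, against 46.6% under TMM.

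Calls among long non-coding RNA (lncRNA) genes were mostly decreases, and those among coding genes were divided. Of 2743 lncRNA genes tested, 848 were lower and 121 higher, with a median log2 fold change of -0.22, and 411 were lower by 2-fold or more. Of 13346 coding genes, 2751 were lower and 3127 higher, with a median of 0.02, and 424 (3.18%) were lower by 2-fold or more. Under upper quartile scaling the balance of coding genes turned, with 3204 lower and 2504 higher, while lncRNA genes had 880 lower and 100 higher. Among the lncRNA classes of the annotation, 362 of 997 lincRNA genes and 408 of 1300 antisense genes were lower, against 43 and 45 higher. Transcripts annotated inside introns of other genes (sense intronic) stood apart from both, with 13 higher and 20 lower of 172 and a median of 0.13. Of 1108 pseudogenes, 95 were higher and 155 lower. The summed level of lncRNA genes did not move with these counts: it was 18800 to 20690 CPM in NTC and 19080 to 19600 CPM in KO. MALAT1 and NEAT1, abundant nuclear lncRNAs, rose.

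Abundance, length and base composition went along with the direction of change. Genes were divided into 4 bins of equal size. In the bin of lowest average CPM, 679 of 4417 genes were lower by 2-fold or more, and in the highest 7 of 4418 were. Within lncRNA genes alone, divided into 4 bins of their own, decreases outnumbered increases in every bin. In the highest of these, 302 of 686 were lower and 66 higher. That bin starts at an average log2 CPM of 1.9, and the highest bin of all genes at 5.52. Coding genes with the least GC had a median log2 fold change of 0.12, with 1109 higher and 384 lower, and those with the most GC had -0.06, with 522 higher and 1022 lower. The bin of shortest coding genes had a median of -0.05 and that of the longest 0.07. When a smooth trend over GC was removed from each library, 7209 genes were called, 3494 higher and 3715 lower. The totals stayed close but the genes changed in part, since 6161 of the 7244 calls without that step were kept in the same direction. What part length plays in the calls was not tested. The number of nuclear genes with any count was also smaller in KO. At an equal depth of 18320505 counts it was expected at 28923, 29420, 29589 and 29216 in NTC and at 28122, 27986 and 28499 in KO, which do not overlap (two-sided exact permutation test, p = 0.0286, the smallest that 4 against 3 libraries allow).

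**Figure D2:**
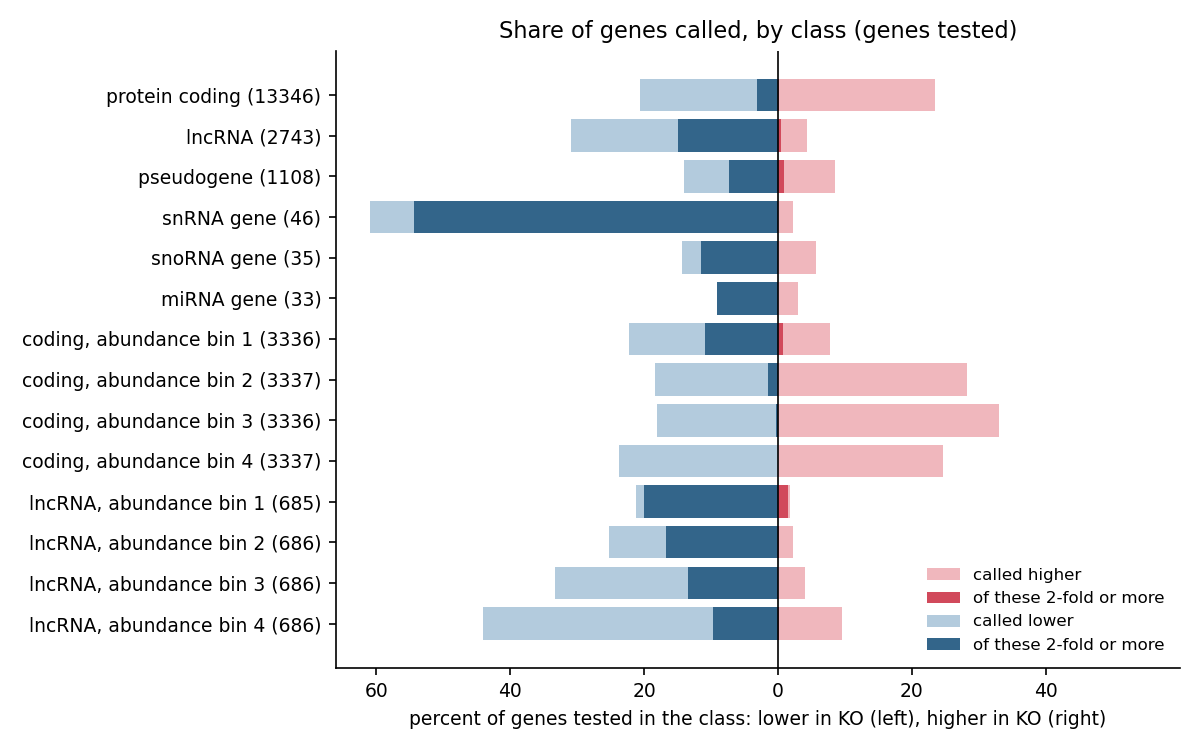
Percent of the genes tested that were called lower (to the left) or higher (to the right) in KO, by gene class and abundance bin. Bins run from lowest (1) to highest (4) and were made separately within coding and within lncRNA genes. The dark parts are calls of 2-fold or more. The lncRNA bars reach further left than right in all 4 bins, and the snRNA bar is almost wholly to the left.

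**Figure D3:**
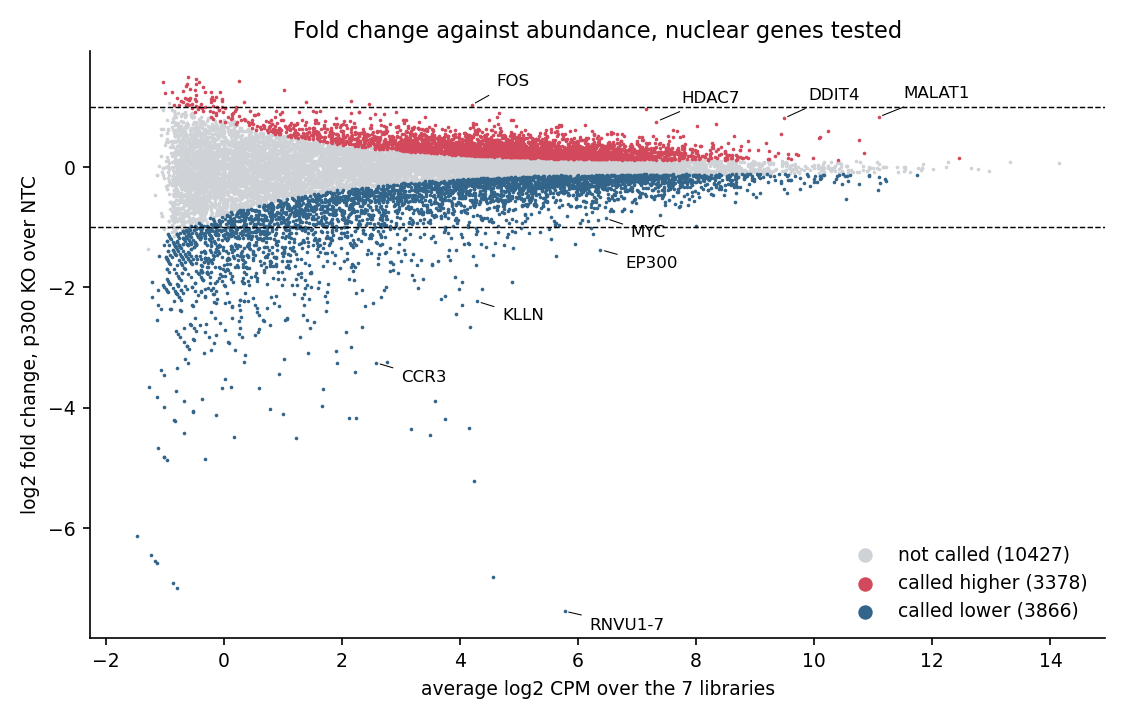
Log2 fold change of KO over NTC (y axis) against average log2 CPM (x axis) for the 17671 nuclear genes tested, 1 point per gene, with dashed lines at 2-fold. Called decreases reach far below the lower line, while called increases of 2-fold or more are few and lie mostly at low CPM.

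The coding genes with the largest decreases, among those of at least 3 in average log2 CPM, held no single kind of gene. KLLN, a p53-regulated gene, fell, at 28.6, 30.4, 30.6 and 27 CPM in NTC and 6.14, 5.95 and 6.52 CPM in KO (log2 fold change -2.23 ± 0.09). CYP19A1, the aromatase that makes oestrogens, was at 17.7, 19.6, 20.5 and 17.8 CPM in NTC and 4.42, 4.5 and 3.5 CPM in KO (-2.19 ± 0.11). SOX11, a transcription factor best known in mantle cell lymphoma, was at 17.7, 20.4, 19.6 and 21.5 CPM in NTC and 5.04, 3.31 and 5.12 CPM in KO (-2.14 ± 0.11). All KO libraries lay under all NTC libraries in these 3 genes. The other 9 genes fell by 1.56 to 2.02 on the log2 scale. They were ANKRD34A, LENG9, the polarity protein gene CRB2, the Rac exchange factor gene ARHGEF6, the mucin gene MUC1, the crystallin gene CRYBB1, the integrin gene ITGB4, the dehydrogenase gene DHRS2 and the actin-associated AFAP1L2. MUC1, for example, was at 18.4, 23.5, 23.7 and 20.3 CPM in NTC and 7.13, 5.9 and 5.01 CPM in KO, and ITGB4 at 14.4, 16.6, 18 and 14.5 CPM in NTC and 4.37, 5.9 and 5.17 CPM in KO. Exons of KLLN, CYP19A1, ANKRD34A, LENG9, CRB2 and MUC1 overlap exons on the opposite strand, those of LENG8 in the case of LENG9. LENG8 changed by 0.10, and without a stated use of strand in counting the reads of such pairs cannot be told apart.

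Increases among coding genes of that abundance were smaller. FOS, an immediate early gene and subunit of the AP-1 transcription factor, was highest in fold, at 9.67, 13.7, 12.9 and 14.2 CPM in NTC and 25, 27.8 and 24.8 CPM in KO (1.03 ± 0.09). Next came ARHGAP19, a GTPase-activating protein gene, at 19.9, 17.3, 17.8 and 18.9 CPM in NTC and 35.3, 32 and 35.6 CPM in KO (0.89 ± 0.07), and PLK4, the kinase that starts centriole duplication, at 20.1, 16.9, 18.9 and 17.8 CPM in NTC and 33.6, 29.2 and 35.5 CPM in KO (0.83 ± 0.08). Groups stood apart in each. DDIT4, a stress-induced inhibitor of mTORC1 signalling, was at 557, 576, 526 and 508 CPM in NTC and 1016, 942 and 890.2 CPM in KO (0.81 ± 0.05). HDAC7, a class IIa histone deacetylase of lymphoid cells, was at 122, 125, 124 and 126 CPM in NTC and 222, 208 and 199 CPM in KO (0.76 ± 0.05). The Hedgehog acyltransferase gene HHAT, the cilium gene FAM161A, the sarcoglycan gene SGCB, the centrosome gene MPHOSPH9, DMBT1, C18orf54 and CCDC150 rose by 0.78 to 0.82. Exons of C18orf54, CCDC150, MPHOSPH9, HDAC7 and DDIT4 overlap those of genes on the other strand. Among those, STARD6 changed by -1.11 and GTF3C3 by 0.34, and the gene over DDIT4 was not tested. All 24 coding genes of these groups were called in the same direction with KO replicate 1 included.

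**Figure D4:**
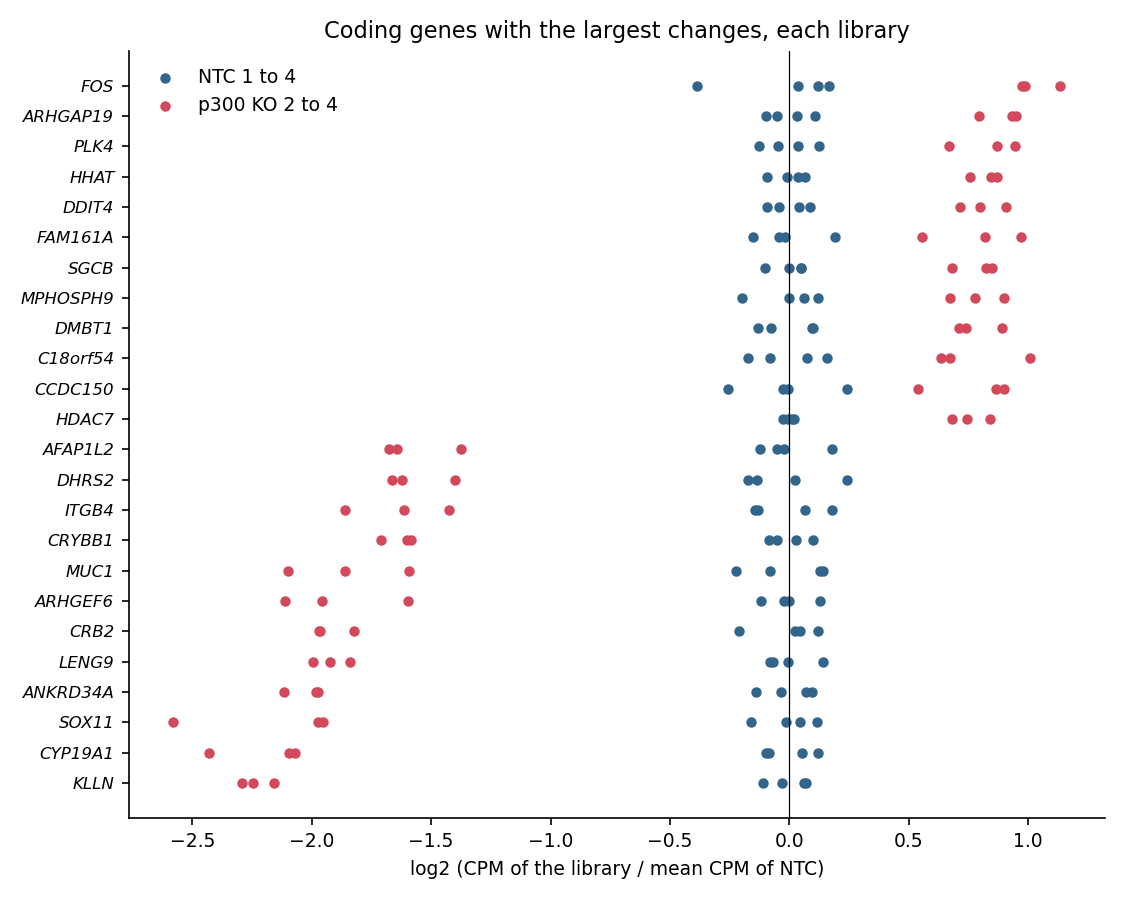
Log2 of the CPM of each library over the mean CPM of NTC (x axis) for the 12 coding genes with the largest called decrease and the 12 with the largest called increase (y axis). The 3 KO libraries (red) lie on 1 side of all 4 NTC libraries (blue) for every gene.

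In absolute level, the largest increases were MALAT1, NEAT1, HSP90AA1, ACTG1 and DDIT4. MALAT1 was at 1374, 1609, 1823 and 1712 CPM in NTC and 2661, 2891 and 3152 CPM in KO (0.83 ± 0.06), and at 22640 CPM in KO replicate 1. NEAT1, the scaffold of paraspeckles, was at 927, 976, 1103 and 956 CPM in NTC and 1522, 1456 and 1532 CPM in KO (0.60 ± 0.05). HSP90AA1, the stress-inducible HSP90, was at 1469, 1424, 1570 and 1538 CPM in NTC and 1957, 2123 and 2092 CPM in KO (0.46 ± 0.05). The libraries of the groups were apart for all of them. ACTG1, a cytoplasmic actin, rose by only 0.15 on the log2 scale and was not called with KO replicate 1 included (0.05, adjusted p = 0.785). The largest decreases were CTSB, VIM, HNRNPA2B1, FLNA and HNRNPA1. CTSB, the lysosomal protease cathepsin B, was at 1835, 1711, 1562 and 1705 CPM in NTC and 1183, 1159 and 1203 CPM in KO (-0.53 ± 0.05), and VIM, the intermediate filament vimentin, at 2344, 2416, 2403 and 2406 CPM in NTC and 1840, 1940 and 1752 CPM in KO (-0.38 ± 0.05). FLNA, an actin cross-linker, fell by 0.27, and the RNA-binding protein genes HNRNPA2B1 and HNRNPA1 by 0.29 and 0.24. HNRNPA2B1 lost its call with KO replicate 1 (-0.16, adjusted p = 0.328). Exons of MALAT1, HSP90AA1, VIM and HNRNPA2B1 also overlap exons on the other strand. Among the genes there, WDR20 (over HSP90AA1) changed by 0.21, VIM-AS1 by -0.24 and CBX3 (over HNRNPA2B1) by -0.03.

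Promoter sequence was read for 4 of the 24 coding genes, to show what lies upstream of genes that moved furthest in each direction. The 250 bases before the RefSeq start are given (GRCh38.p14, 5′ to 3′ on the gene's strand, capitals marking motif matches). CYP19A1 (chr15:51318498-51318747, minus strand) and LENG9 (chr19:54463779-54464028, minus strand) fell, and HHAT (chr1:210328002-210328251, plus strand) and DDIT4 (chr10:72273674-72273923, plus strand) rose. The CYP19A1 stretch lies inside the gene as counted, which runs to position 51338610, so the start used is not the outermost one.
CYP19A1: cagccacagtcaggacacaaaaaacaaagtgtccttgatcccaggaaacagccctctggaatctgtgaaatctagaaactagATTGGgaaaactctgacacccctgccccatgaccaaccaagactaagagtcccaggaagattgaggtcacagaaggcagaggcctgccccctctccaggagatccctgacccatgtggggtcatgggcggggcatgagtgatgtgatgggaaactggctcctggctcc
LENG9: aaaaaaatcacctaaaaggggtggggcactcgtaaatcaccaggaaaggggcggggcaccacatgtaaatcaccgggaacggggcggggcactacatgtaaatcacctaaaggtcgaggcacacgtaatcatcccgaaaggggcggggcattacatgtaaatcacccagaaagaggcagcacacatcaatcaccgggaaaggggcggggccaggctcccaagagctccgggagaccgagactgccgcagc
HHAT: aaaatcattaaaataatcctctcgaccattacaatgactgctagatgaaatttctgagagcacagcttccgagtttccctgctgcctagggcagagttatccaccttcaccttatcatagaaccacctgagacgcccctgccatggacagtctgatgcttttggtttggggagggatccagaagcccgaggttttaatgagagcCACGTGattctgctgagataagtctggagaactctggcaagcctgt
DDIT4: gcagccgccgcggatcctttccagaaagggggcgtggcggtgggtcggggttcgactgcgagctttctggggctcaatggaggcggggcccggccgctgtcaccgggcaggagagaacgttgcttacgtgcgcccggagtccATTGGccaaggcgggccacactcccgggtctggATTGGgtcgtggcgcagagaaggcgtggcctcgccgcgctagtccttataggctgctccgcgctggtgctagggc
The motifs searched on both strands were the E-box CACGTG, the AP-1 site TGANTCA, an interferon response site, the cAMP response element TGACGTCA, the NF-kB type site GGGANTTCC, the CCAAT box and TATAAA. In these stretches CYP19A1 held 1 CCAAT match, read as ATTGG on the strand shown, and DDIT4 held 2. HHAT held 1 CACGTG match and LENG9 no match.

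Over windows of 300 bases (250 before and 50 after the start), 10746 of 13260 coding genes tested with a symbol had a sequence. CCAAT was present in 36.7% of these windows, in 41.4% of those of the 2611 genes called higher and in 34.1% of those of the 2127 called lower. Among the 285 genes lower by 2-fold or more it was in 27.4%. TATAAA went the other way, with 5.73% of all windows, 4.98% of those called higher, 7.15% of those called lower and 12.6% of those lower by 2-fold or more. CACGTG was in 10.0% of all windows, 11.5% of those called lower and 5.96% of those lower by 2-fold or more, and TGACGTCA in 3.24%, 2.63% and 1.4%. The median GC of the windows was 65.3% over all and 62.0% for genes lower by 2-fold or more. These shares are descriptions, and a match is not a bound site.

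Genes annotated as small nuclear RNA (snRNA) fell most by median of the classes with 10 or more genes. The class holds genes whose products build the spliceosome, but also copies named as pseudogenes, such as RNU2-17P. Of 46 tested, 28 were lower and 1 was higher, with a median log2 fold change of -1.57, and 25 were lower by 2-fold or more. The variant U1 gene RNVU1-7 was at 79.8, 96, 108 and 93.7 CPM in NTC and 0.312, 0.828 and 0.539 CPM in KO (-7.38 ± 0.14) and RNVU1-31 at 35.7, 40.6, 44.1 and 40.2 CPM in NTC and 0.208, 0.414 and 0.431 CPM in KO (-6.82 ± 0.16). The drop in counts was not limited to U1, which recognises the 5′ splice site. RNU5A-1, of the U5 family that acts at the catalytic core of the spliceosome, was at 11.8 to 17.7 CPM in NTC and 0.431 to 0.884 CPM in KO (-4.36 ± 0.18). RNU4ATAC and RNU11, of the minor spliceosome, changed by -4.17 and -3.04, and the U4 gene RNU4-2 by -2.21. Of 35 snoRNA genes, 5 were lower (14.3%) and 2 higher (5.71%), with a median of 0.008. Both shares were under those over all genes tested (21.9% and 19.1%). The U3 genes SNORD3B-2, SNORD3B-1 and SNORD3A, which guide early cleavage of ribosomal RNA, fell by 2.66, 2.44 and 2.25. SNORD3A, for example, was at 7.37, 8.83, 8.74 and 8.85 CPM in NTC and 1.87, 1.6 and 1.83 CPM in KO. U1, U3 and 7SL genes have near-identical copies, so the share of reads given to each copy is uncertain. Whether the reads of small RNA genes come from mature RNA was not tested. A fall in these counts need not be a fall in working snRNA. The summed level of small RNA genes was 630.2, 703.1, 765.0 and 691.0 CPM in NTC and 454.1, 446.9 and 691.5 CPM in KO, which overlap. In KO 4 that sum held 328 CPM of RN7SL2, an RNA of the signal recognition particle, which stood at 104, 101, 99.1 and 99.5 CPM in NTC and 135, 126 and 328 CPM in KO (0.96 ± 0.14, not called with KO replicate 1 included).

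Some genes fell from clear levels to a few counts. DYRK3-AS1, antisense to a kinase gene, had 71, 65, 100 and 61 counts in NTC and 3 in each KO library. ADORA3, the coding gene of an adenosine receptor, had 17, 17, 29 and 25 counts in NTC and 1, 1 and 2 in KO. The U2-type pseudogene RNU2-17P had 21, 29, 26 and 18 counts in NTC and 0, 2 and 0 in KO. No called gene with a symbol went the opposite way, from at most 3 counts in every NTC library upward. Such genes are tested only through the counts of the other group, and the filter is easier to pass through the more numerous NTC libraries. The pseudogene SSBL4P was at 13.3, 17.8, 24.3 and 18.7 CPM in NTC and 0.728, 0.88 and 0.916 CPM in KO. Of 304 tested genes named LINC, 107 were lower and 15 higher, with a median of -0.26, among the former LINC02870 (25.5 to 34.6 CPM in NTC and 5.82 to 8.65 CPM in KO) and LINC00484 (97.1 to 100.5 CPM in NTC and 44.4 to 47.5 CPM in KO). Those that rose included LINC01748 (3.13, 2.94, 2.96 and 2.74 CPM in NTC and 5.83, 6.73 and 6.31 CPM in KO) and LINC00680 (4.39 to 6.7 CPM in NTC and 9.92 to 10.6 CPM in KO). Of 621 genes named as antisense, 197 were lower and 22 higher, among the former MAP3K4-AS1 (-1.60 ± 0.11) and TNFRSF14-AS1 (-0.95 ± 0.07).

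The genes were also read by function, in lists that give for each how many members passed the test over all genes, beside 19.1% higher and 21.9% lower over the whole table. Among 18 acetyltransferase genes, EP300 was the one that fell by over 2-fold. The list held 7 higher, with CREBBP, KAT6B (56.1 to 60.7 CPM in NTC and 67.8 to 77.6 CPM in KO), the coactivator gene NCOA1 and HAT1 among them, and 3 lower, KAT2B, KAT2A and EP300. The rises of KAT6B, NCOA1 and HAT1 and the falls of KAT2B and KAT2A were not called with KO replicate 1 included. Of 34 genes for readers of acetylated lysine (bromodomain and YEATS proteins), 16 rose and 1 fell, with a median of 0.15. ATAD2 was at 73.3, 73.7, 75.9 and 76.9 CPM in NTC and 113, 103 and 112 CPM in KO (0.54 ± 0.05) and BRD8, of the NuA4 acetyltransferase complex, at 89.3, 90.6, 83.8 and 92.3 CPM in NTC and 135, 128 and 128 CPM in KO (0.55 ± 0.05). The gene that fell was MLLT3, a YEATS protein of the elongation complex (-0.31). Of 24 deacetylase and corepressor genes, 11 rose and 3 fell. HDAC7, NCOR1 (85.9 to 88.6 CPM in NTC and 116 to 128 CPM in KO) and SIN3B were among those that rose, and those that fell were HDAC9 (-0.57), SIRT5 (-0.48) and HDAC4 (-0.25). The falls of HDAC9 and HDAC4 were not called with KO replicate 1 included, nor that of HDAC4 without KO 3 (-0.17). EZH1, a methyltransferase of Polycomb complex 2, rose, at 37.2 to 44.1 CPM in NTC and 63.1 to 65.2 CPM in KO, and SETD1B, a methyltransferase of histone H3 lysine 4, fell, at 77.3 to 87.1 CPM in NTC and 53.3 to 55.9 CPM in KO. ELL2, an elongation factor used for immunoglobulin mRNA processing in plasma cells, was at 129.6 to 153 CPM in NTC and 105 to 113 CPM in KO (-0.40 ± 0.05).

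Transcription factors of plasma cells and myeloma were more often lower than higher. Of 33 tested, 17 were lower and 5 higher, with a median of -0.23. ETS1 was at 36, 29.3, 33.3 and 29.6 CPM in NTC and 15.8, 14.6 and 15.2 CPM in KO (-1.08 ± 0.08), and KLF2, a factor of lymphocyte trafficking and quiescence, at 25.7, 26.9, 23.5 and 21.6 CPM in NTC and 13, 11.9 and 11.4 CPM in KO (-1.01 ± 0.09). MAF, an oncogene of myeloma, was at 288, 286, 252 and 275 CPM in NTC and 167, 172 and 192 CPM in KO (-0.64 ± 0.05). No KO library reached the NTC range in these genes. PRDM1, which encodes the plasma cell regulator BLIMP1, changed by -0.39, and XBP1, the driver of secretory expansion, by 0.08, which did not pass the test (adjusted p = 0.194). RUNX3, KLF13, TCF12 and ID3 were higher by 0.18 to 0.23, none of them called with KO replicate 1 included, where 9 of the list were lower and 0 higher.

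Of 29 genes for surface proteins of plasma cells, 15 were lower and 4 higher, with a median of -0.18. TNFRSF17, which encodes BCMA, was at 563, 614, 596 and 586 CPM in NTC and 399, 435 and 420.4 CPM in KO (-0.50 ± 0.05). GPRC5D, like BCMA a target of antibody therapy, was at 14.6, 16.8, 15.7 and 16.3 CPM in NTC and 11.2, 9.79 and 11.4 CPM in KO (-0.55 ± 0.09). CD38 fell by 0.32 and the interleukin-6 receptor gene IL6R by 0.27. SDC1, the syndecan CD138 by which plasma cells are sorted, went up, at 362, 345, 308 and 336 CPM in NTC and 495, 458 and 489 CPM in KO (0.51 ± 0.05), but was not called with KO replicate 1 included. Of the 10 defining plasma cell markers, 7 were lower and 1 was higher, yet their summed level was 13600 to 14200 CPM in NTC and 14300 to 14400 CPM in KO, since it rests on JCHAIN. Immunoglobulin and secretory genes were at the background, with 8 higher and 6 lower of 43 and a median of 0.02 (-0.011 under upper quartile scaling). The kappa constant gene IGKC had a log2 fold change of -0.01 ± 0.05.

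Genes that mark other blood lineages were called lower or did not pass the test, and many had too few counts to be tested. All 9 tested markers of earlier B cells were lower, with a summed level of 39.6 to 46.2 CPM in NTC and 23.8 to 29.1 CPM in KO. Summed T cell markers were at 52.6 to 59.5 and 42.6 to 45.0 CPM, and NK cell markers at 37.9 to 41.4 and 23.8 to 26.4 CPM, with 1 of 2 and 2 of 3 tested markers lower and none higher. The T cell marker CD3E was at 28.3 to 32.4 and 30.04 to 32.4 CPM and was not called. Monocyte markers stood at 12.1 to 16.8 and 9.55 to 9.81 CPM, with 1 of 2 tested lower, and erythroid markers at 0.878 to 1.45 and 0.613 to 0.785 CPM, where the 1 tested was not called. Fibroblast markers summed to 1.06 to 1.81 and 0.837 to 1.99 CPM. COL1A1 was called higher (0.89), although KO 2 lay under every NTC library, and PDGFRB lower (-1.28), and COL3A1 and LUM were at 0 in every library. Epithelial markers summed to 18.1 to 19.9 and 18.2 to 19.4 CPM, of which CDH1 was called lower (-1.64), KRT8 and KRT18 were not called and KRT19 was at 0 in every library. What part these markers have in the other results was not tested.

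Genes of ribosome production fell along with MYC, and few ribosomal protein genes did. Of 55 nucleolar and ribosome biogenesis genes, 41 were lower and none was higher, with a median of -0.25. RRS1 was at 111, 102, 118 and 121 CPM in NTC and 70.6, 76.4 and 61.9 CPM in KO (-0.70 ± 0.06), RRP12 at 79.8 to 97.1 CPM in NTC and 61.2 to 64.6 CPM in KO (-0.54 ± 0.06) and WDR74 at 84.5 to 96.9 CPM in NTC and 63 to 67.9 CPM in KO (-0.46 ± 0.06). All are assembly factors of ribosomal subunits. With KO replicate 1, 17 of the list were lower and 0 higher. Of 81 cytosolic ribosomal protein genes, 7 were lower and none higher, with a median of -0.03 that turned to 0.015 without KO 4. Of 20 tRNA synthetase genes, 7 were lower and none higher, among the former GARS1 (-0.35) and VARS1 (-0.32). In the MYC network itself, 4 of 14 were lower (28.6%) and 1 was higher (7.14%). The median of -0.047 turned to 0.004 with KO replicate 1 included and to 0.015 without KO 4. The lower ones were MYC, the opposing repressor gene MNT (-0.55), RIOX2 and FBXW7. RIOX2 and FBXW7 were not called with KO replicate 1 included. Of 66 genes for translation factors and their modifiers, 13 were lower (19.7%) and 8 were higher (12.1%). Both shares were under those over all genes tested (21.9% and 19.1%). The lower ones included EEF2KMT (-0.68), EIF4A3 (-0.48) and EIF5A (-0.37).

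Amino acid supply and nucleotide synthesis genes were more often called lower than higher. Of 29 genes for amino acid supply and targets of the stress factor ATF4, 13 were lower and 4 higher. The transporter genes SLC7A5 (437 to 489 CPM in NTC and 337 to 341 CPM in KO), SLC3A2 (219 to 237 CPM in NTC and 171 to 172 CPM in KO) and SLC1A5 (296 to 322 CPM in NTC and 208 to 222 CPM in KO) all fell. SLC7A5 and SLC3A2 encode both chains of one leucine transporter. DDIT4, DDIT3 (0.49) and ATF5 (534 to 608 CPM in NTC and 801 to 909 CPM in KO), stress-response genes, went up. Of 27 purine and pyrimidine synthesis genes, 13 were lower, with PFAS (-0.44) and DCTPP1 (-0.42) among them, and 5 were higher, with RRM1, RRM2, TYMS and SHMT1, which make deoxynucleotides and folate units, among them. Those 4 were not called with KO replicate 1 included. Glycolysis (5 higher and 5 lower of 23), oxidative phosphorylation (17 and 5 of 77), the proteasome (8 and 2 of 46) and the unfolded protein response (5 and 4 of 25) had medians between 0.00 and 0.07. Under upper quartile scaling those of oxidative phosphorylation and the proteasome were -0.031 and -0.010, and with KO replicate 1 those of glycolysis and the unfolded protein response were -0.097 and -0.053. Cholesterol genes were 9 higher and 2 lower of 24, with STARD4 (0.53) and MVK (0.42) up and PMVK (-0.45) down.

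Genes of dividing cells rose nearly as a block. Of 46 mitosis and kinetochore genes, 41 were higher and none was lower, with a median of 0.33. TOP2A, the topoisomerase that untangles sister chromatids, was at 243, 256, 269 and 243 CPM in NTC and 402, 408 and 431 CPM in KO (0.71 ± 0.05). SPC24, of the kinetochore NDC80 complex, was at 39.8, 41.6, 39.2 and 40.4 CPM in NTC and 63.9, 67.9 and 64.8 CPM in KO (0.70 ± 0.06), and UBE2C, the ubiquitin carrier of the anaphase-promoting complex, at 152, 152, 171 and 158 CPM in NTC and 240.0, 264 and 221 CPM in KO (0.61 ± 0.05). Every KO library lay above every NTC library in these genes. Of 45 replication and S phase genes, 35 were higher and 1 lower, with a median of 0.23, among them GINS4 (51.4 to 52.8 CPM in NTC and 71.2 to 74.9 CPM in KO) and POLE (86.5 to 96.7 CPM in NTC and 117 to 129 CPM in KO). The 1 that fell was CCNE1, cyclin E1, which acts before S phase (-0.30 ± 0.08). With KO replicate 1 included, 24 mitosis genes were higher and 0 lower, and 11 S phase genes were higher and 1 lower. DNA repair genes were 19 higher and 4 lower of 40, with BRCA1 (0.55), POLQ (0.55) and FANCL (0.51) up and XRCC6 (-0.22) down. Of 36 replication-dependent histone genes, 12 were higher and 3 lower, and these too are genes with near-identical copies.

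Regulators of the G1 phase were divided. Cyclin D1 (CCND1) was at 112, 111, 113 and 109 CPM in NTC and 67.7, 67.3 and 67.2 CPM in KO (-0.72 ± 0.05) and cyclin D2 (CCND2) at 195, 199, 202 and 194 CPM in NTC and 141, 149 and 137 CPM in KO (-0.47 ± 0.05). The inhibitor genes CDKN1C (9.72, 8.36, 9.17 and 8.75 CPM in NTC and 3.23, 3.21 and 3.67 CPM in KO) and CDKN2B (6.97 to 9.05 CPM in NTC and 3.56 to 4.37 CPM in KO) fell as well. RBL1, a pocket protein that restrains E2F factors, was at 33.1 to 35.3 CPM in NTC and 47.2 to 52.8 CPM in KO (0.56 ± 0.06), and CCNG2 rose by 0.56. Over the list, 6 were higher and 7 lower of 21. Of 33 p53 target genes, 18 were higher and 4 lower, with a median of 0.18. FDXR (39.7 to 42.7 CPM in NTC and 58.5 to 66.5 CPM in KO), TNFRSF10C and BTG2 (249 to 289.6 CPM in NTC and 339.5 to 379 CPM in KO) rose, while KLLN, the kinase gene PLK2 (8.26, 8.72, 8.98 and 7.14 CPM in NTC and 3.38, 2.43 and 3.29 CPM in KO), AEN and GADD45A fell. GADD45A was not called with KO replicate 1 included. In the apoptosis list, the survival genes BCL2 (23.4 to 33.1 CPM in NTC and 16.5 to 18.7 CPM in KO) and BCL2A1 (14.9 to 18.2 CPM in NTC and 11.3 to 12 CPM in KO) and the death gene BCL2L11 (29.8 to 36.6 CPM in NTC and 24.4 to 29.5 CPM in KO) fell, and BMF, APAF1 and CASP9, which act toward cell death, rose by 0.36, 0.53 and 0.31. That list had 10 higher and 6 lower of 30.

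**Figure D5:**
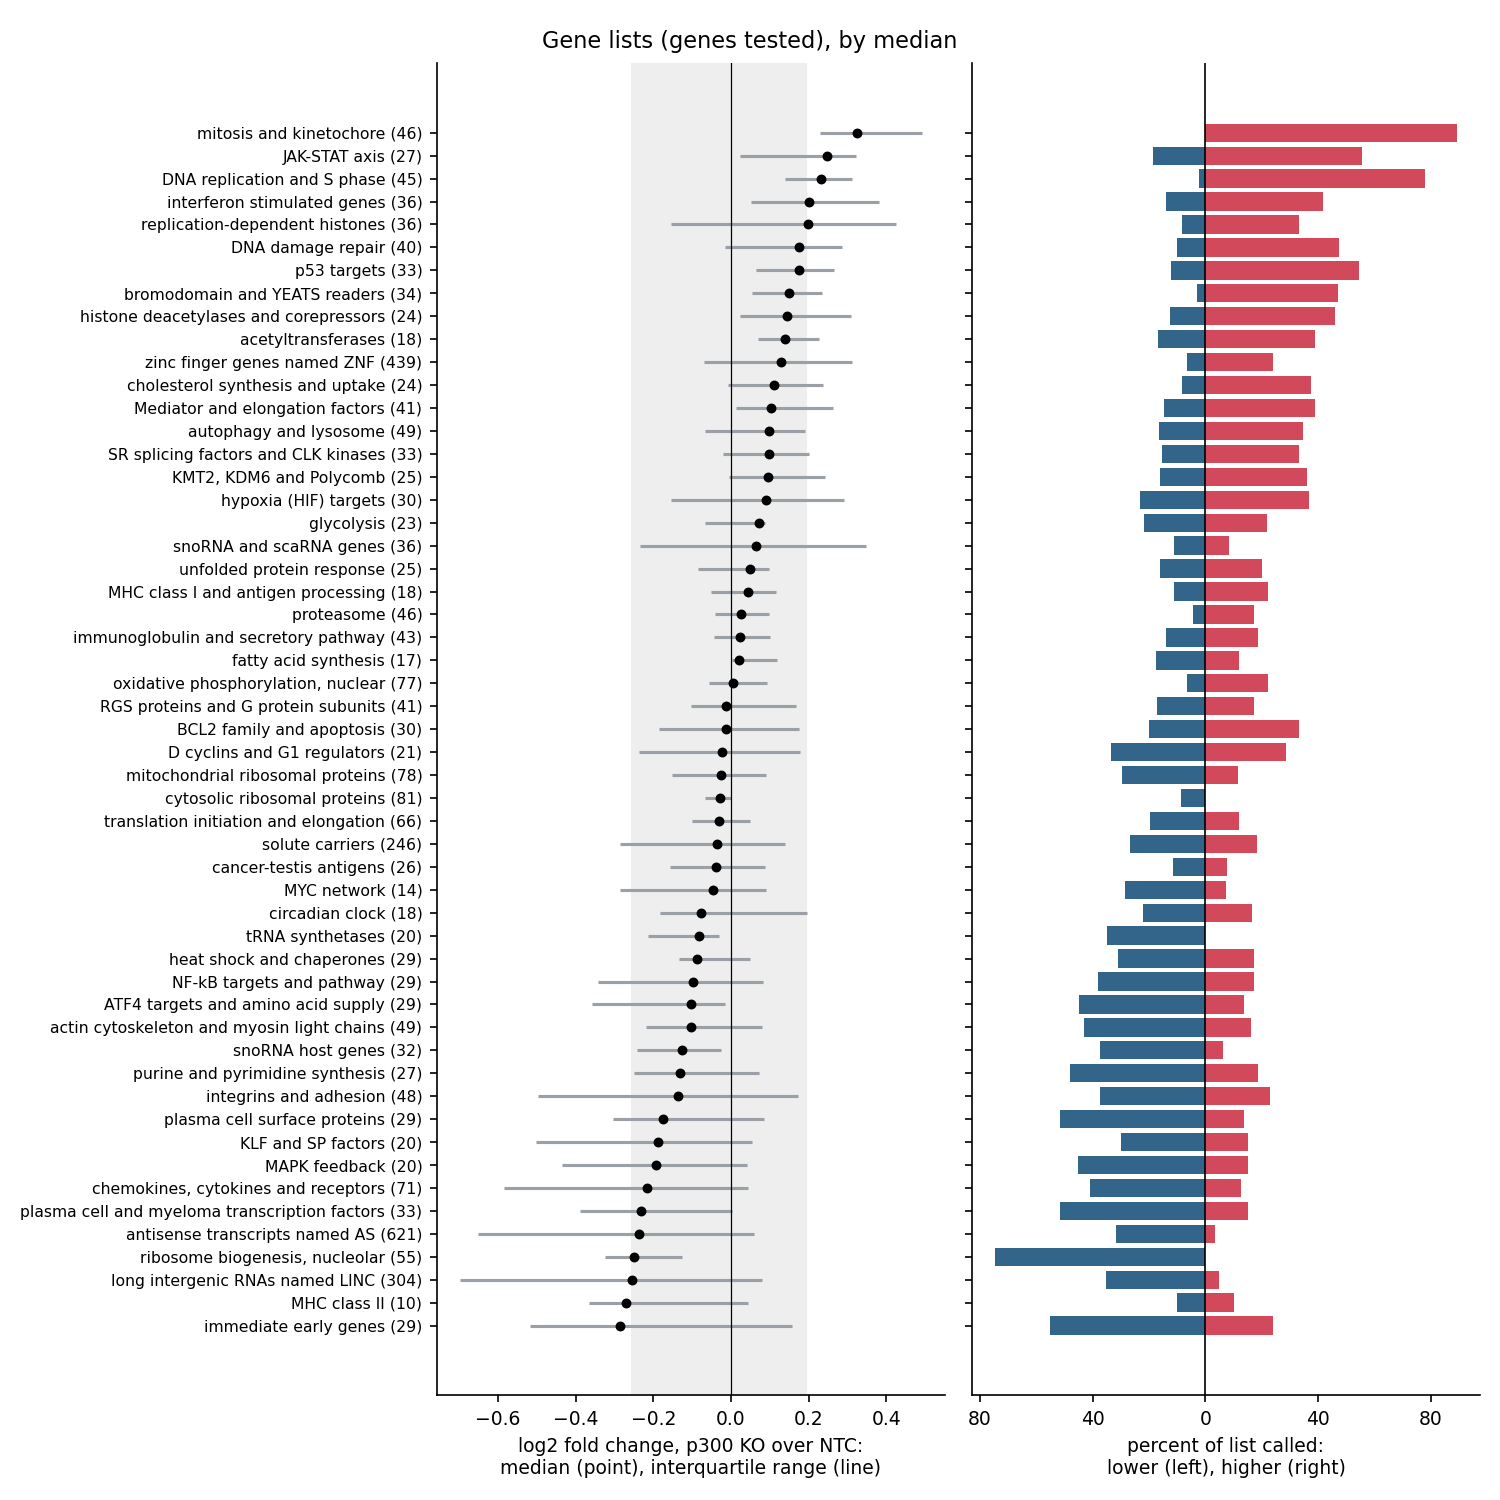
Left, median (point) and interquartile range (line) of the log2 fold change of KO over NTC for each gene list of at least 10 genes tested, with the interquartile range of all genes tested in grey. Right, percent of each list called lower or higher. Mitosis, JAK-STAT and S phase lists lie at the top, and immediate early genes, LINC genes and ribosome biogenesis near the bottom.

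Immediate early genes, which answer signals within minutes without new protein, fell more often than they rose. Of 29, 16 were lower and 7 higher, with a median of -0.29. ZFP36L1, which encodes an mRNA decay protein, was at 14.1, 14.6, 16.5 and 14.8 CPM in NTC and 6.45, 7.51 and 6.31 CPM in KO (-1.15 ± 0.10), and KLF10 at 97.7 to 109.5 CPM in NTC and 68.2 to 74.8 CPM in KO (-0.52 ± 0.06). ZFP36, a relative of ZFP36L1, went the other way, at 192, 207, 225 and 198 CPM in NTC and 339.6, 346 and 301 CPM in KO (0.68 ± 0.05), as did FOS. Genes of feedback on MAPK signalling were 9 lower and 3 higher of 20. DUSP2, a phosphatase of ERK, was at 7.26 to 9.14 CPM in NTC and 4.11 to 5.34 CPM in KO, and ETV4 fell by 0.34. FGFR3, the receptor activated by a translocation in this line, rose, at 119, 116, 108 and 120.4 CPM in NTC and 166, 164 and 158 CPM in KO (0.49 ± 0.05) and was not called with KO replicate 1 included. By gene symbol, the DUSP family had 10 lower and 3 higher of 18.

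Cytokine and chemokine genes were more often lower than higher where they could be tested. Of 174 genes in that list, 71 had enough counts to be tested, 29 of them lower and 9 higher, with a median of -0.22. CCR3, the eotaxin receptor, was at 7.42, 10.2, 10.4 and 9.58 CPM in NTC and 1.09, 1.19 and 0.647 CPM in KO (-3.25 ± 0.18), the largest fall of the list. CCL3, an inflammatory chemokine that myeloma cells are known to secrete, was at 52.6, 69, 63.8 and 57.6 CPM in NTC and 27.6, 28.9 and 23.1 CPM in KO (-1.20 ± 0.07), and CCL4 at 4.62 to 6.27 CPM in NTC and 2.76 to 3.11 CPM in KO (-0.91 ± 0.16). In all of these the groups stood apart. CCL3 and CCL4 have close paralogs, between which reads may be split. TRAF1, an adaptor of TNF receptors induced by NF-kB, was at 57.3 to 75.5 CPM in NTC and 31.2 to 36.1 CPM in KO (-0.95 ± 0.07). NF-kB genes as a list had 11 lower and 5 higher of 29.

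JAK-STAT pathway genes were more often higher than lower, while the inhibitor genes SOCS1 and SOCS2 fell. JAK3 was at 121, 129.5, 124 and 125 CPM in NTC and 174, 162 and 159 CPM in KO (0.40 ± 0.05) and STAT2 at 53.5 to 58.5 CPM in NTC and 69.9 to 81.1 CPM in KO. SOCS1, a feedback inhibitor of JAK kinases, was at 2.61, 2.63, 3.25 and 3.62 CPM in NTC and 0.52, 0.88 and 0.162 CPM in KO (-2.52 ± 0.29), and SOCS2 at 14.7, 15.4, 17.7 and 15.8 CPM in NTC and 9.36, 9.22 and 9.7 CPM in KO (-0.76 ± 0.09). SOCS3 and SOCS5 changed by 0.36 and 0.40. STAT4 was lower, at 73.6 to 88.3 CPM in NTC and 51.1 to 52.5 CPM in KO. The kinase gene PIM2, a STAT target in myeloma, rose, at 896 to 959 CPM in NTC and 1255 to 1315 CPM in KO (0.48 ± 0.05). Over the list, 15 were higher and 5 lower of 27, with a median of 0.25. Interferon-stimulated genes were 15 higher and 5 lower of 36, with a median of 0.20, with MX1 (17.8 to 21 CPM in NTC and 25.3 to 27.6 CPM in KO) and IRF9 (9.68 to 10.5 CPM in NTC and 12.5 to 15.2 CPM in KO) up and ISG20 (-0.47) and OAS1 (-0.31) down. STAT2 and PIM2 were not called with KO replicate 1 included.

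Adhesion and cytoskeleton genes fell more than they rose. Of 79 integrin and adhesion genes, 48 were tested, 18 lower and 11 higher. PECAM1 was at 66.4, 64, 55.2 and 61 CPM in NTC and 30.1, 30.9 and 32.4 CPM in KO (-0.98 ± 0.07) and the integrin gene ITGAX at 4.44, 5.41, 4.87 and 4.06 CPM in NTC and 2.03, 1.71 and 1.56 CPM in KO (-1.40 ± 0.18). Actin and myosin genes were 21 lower and 8 higher of 49, with LCP1, the actin bundler of leukocytes, at 68 to 75.2 CPM in NTC and 50.4 to 55.8 CPM in KO, and MARCKS at 164 to 194 CPM in NTC and 124 to 138 CPM in KO. Zinc finger genes named ZNF, by far the largest family of transcription factors, were 105 higher and 28 lower of 439, with a median of 0.13, and 40 higher and 10 lower with KO replicate 1 included. Among them ZNF107 (13.6 to 17.8 CPM in NTC and 21.9 to 26 CPM in KO) rose and ZNF469 (1.26 to 1.88 CPM in NTC and 0.414 to 0.647 CPM in KO) fell. Circadian clock genes were 3 higher and 4 lower of 18, with NR1D1 (-0.88) down and CRY2 (0.61) up. KLF and SP factors were 3 higher and 6 lower of 20, with KLF16 (-0.60) and SP6 (-1.40) down.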

How the data were processed

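RNA was measured in 8 libraries of NCI-H929 cells, NTC and p300 KO, grouped by the labels. The deposited values are whole-number counts per gene, 57500 genes per library. The submitters' processing notes name STAR 2.5.2b and Trimmomatic 0.36 for the reads, Subread 1.5.2 with featureCounts for the counts, and the build GRCh38. Annotation release, strand use and treatment of multi-mapping reads are not stated in them. Positions were compared with GENCODE 29, where 54784 of 56898 matched genes (96.3%) agreed, and gene types were taken from it. 40907 genes had a symbol. No row without a gene entered the library sizes. The 8 libraries of the other experiment were not used here.

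Mitochondrial genes were removed, filterByExpr at its defaults chose the genes to test, and libraries were scaled with TMM. The quasi-likelihood test on group was run in edgeR 4.0.16 (R 4.3.3) on NTC 1 to 4 and KO 2 to 4, with Benjamini-Hochberg adjustment over the 17671 genes tested and a threshold of 0.05. The SE of a log2 fold change is its absolute value over the square root of the F statistic, and can fall below counting error at few counts. The floor of 3 counts was 0.145 to 0.164 CPM. It covers counting error only. Pairs of libraries of a group differed by more than sampling noise (chi-square per degree of freedom from 2.61 to 5.25 without KO 1). Alternatives were other scalings, filters and tools, a fold threshold, each library left out, KO 1 included and a replicate block. Removing a GC trend and thinning were added after the data were seen.

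The genes, the 54 lists and the rules below were chosen with earlier results of these data known. Named are EP300, CREBBP, MYC and IRF4, the 12 called coding genes per direction of largest absolute fold change (average log2 CPM of 3 or more, groups apart), 4 non-coding genes per direction likewise at 1 or more, the 5 each way with the largest change in mean CPM, up to 4 per list and direction with the smallest p, and up to 3 each way with at most 3 counts in every library of 1 group. LENG8, STARD6, GTF3C3, RNU5A-1, RNU4ATAC, RNU11, RNU4-2, IGKC, XBP1, PRDM1, SOCS3 and SOCS5 and the genes of the closing observations fall outside this rule and were picked with their values in view. Some genes that the rule names are not reported here. Promoters are from a RefSeq table. Of the genes by rule with a sequence in that table, the first 2 each way were printed whose 250 bases before the start hold at most 30 bases of annotated exons. That limit was added later and passed over KLLN, ANKRD34A, FOS, ARHGAP19 and PLK4.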

Additional observations from a re-analysis of the deposited data

Results flagged for a closer look

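In 104 groups of 4 libraries (NTC, or KO with replicate 1), 13 had a highest or lowest library farther from the others than the 95% limit for 4 values allows. Chance flags about 1 in 20 groups that were not picked from the data. Most genes looked at here were picked from the fit without KO replicate 1, often because the groups did not overlap. The mitochondrial share is also what the rule on that replicate used. These flags are therefore no separate ground for leaving it out. KO replicate 1 was the flagged library in 11 of the 13. It had 47.74% mitochondrial counts and 47010 CPM in lncRNA genes. Its levels were above those of KO 2 to 4 for MALAT1 (22640 CPM), NEAT1 (2528 CPM), HSP90AA1 (4641 CPM), HNRNPA2B1 (2092 CPM), FAM161A (29.38 CPM) and SSBL4P (4.991 CPM). They were below those of KO 2 to 4 for CTSB (713.4 CPM), ACTG1 (4333 CPM) and DYRK3-AS1 (0.1134 CPM). Only 2 of the 13 concerned a library used in the comparison. RN7SL2 was at 328.5 CPM in KO 4, and RNU2-17P at 0.1038 CPM in KO 3, where the other KO libraries had 0.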

How the results depend on the processing

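Of the 390 genes named by the rule, between 364 and 390 kept their direction and call under each alternative other than the fold threshold and KO replicate 1, and none of them reversed there. Most of the 390 were picked from the main fit for a small p or a large change, which favours keeping the call. Of all 7244 calls, 5937 were kept in the same direction without KO 2, 5937 without KO 4 and 6161 with the GC trend removed. Against a fold of 1.5 (glmTreat), 719 genes were called, 18 higher and 701 lower, of which 622 by 2-fold or more, 6 higher and 616 lower. Of these calls, 13 coding genes were higher and 324 lower, and 2 lncRNA genes higher and 275 lower. With KO replicate 1, 2917 were called, 1008 higher and 1909 lower, with 686 at 2-fold or more and 649 of those lower. Coding genes were then 932 higher and 1288 lower and lncRNA genes 31 higher and 470 lower, and the mitochondrial share differed by 10.389 points. Of the 390 genes, 211 kept their call, 173 lost it and 6 reversed with it: FBXW7 (0.144), JARID2 (0.042), HSPA5 (-0.014), DERL1 (-0.016), ID3 (-0.017) and ICAM1 (-0.017). The cause was not tested. With no filter, 110 genes were higher by 2-fold or more, and with at least 1 CPM in 3 libraries 677 changed by 2-fold or more, 12 of them higher. Leaving out 1 library gave 6267 to 6921 calls, with 50 to 87 genes higher by 2-fold or more (87 without KO 2). NTC and KO libraries of the same replicate number were no more alike in their deviations from the group means than others. Their correlations were -0.002, 0.001 and -0.018, and those of unlike numbers ran from -0.03 to 0.035. With so few libraries this cannot exclude a pairing. A replicate block called 6599 genes.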

Other observations

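T cell receptor genes had counts in this B lineage line, and their classes differed in direction. All 5 tested variable genes were lower in KO, the 1 diversity gene tested (TRBD1, 1.14, at under 1 CPM in every library) was higher, and of 5 joining genes 1 was higher and none lower. TRGV2, of the gamma locus, was at 14.5, 14.4, 14.1 and 13.6 CPM in NTC and 3.59, 3.62 and 3.29 CPM in KO (-2.01 ± 0.12), and TRGV4 at 19.1, 21.8, 22.2 and 18.9 CPM in NTC and 8.69, 6.47 and 8.41 CPM in KO (-1.38 ± 0.10). TRAC, the alpha constant gene, was at 22.8, 26.3, 26.2 and 23.9 CPM in NTC and 12.1, 11.9 and 11.5 CPM in KO (-1.07 ± 0.08), while TRBC2, a beta constant gene, was at 344 to 362 CPM in NTC and 374 to 410.5 CPM in KO (0.13 ± 0.05). Of 11 immunoglobulin constant genes, 4 were lower and 2 higher, and of 11 joining genes 4 were higher and none lower. At the heavy chain locus, the IgG constant genes IGHG1 and IGHG4, whose sequences are close, were lower (-0.87 and -0.77), and IGHE, the IgE constant gene, was higher (0.46).

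Of 246 solute carrier genes tested, 66 were lower (26.8%) and 45 higher (18.3%), beside 21.9% and 19.1% over all genes tested. SLC6A8, the creatine transporter, was at 60.5 to 64.3 CPM in NTC and 38.3 to 41.2 CPM in KO, and SLC4A11 at 29.5 to 32.3 CPM in NTC and 19.2 to 21 CPM in KO, both called lower. Of 22 collagen genes (symbols COL), 9 were lower, 6 of them by 2-fold or more, and 3 were higher. Host genes of snoRNAs, which carry snoRNAs in their introns, were 12 lower and 2 higher of 32, with SNHG10 (14.2 to 15.3 CPM in NTC and 7.12 to 9.16 CPM in KO) and SNHG26 (14.9 to 17 CPM in NTC and 8.89 to 9.81 CPM in KO) lowest in fold. Of 33 genes for SR splicing factors and their kinases, 11 were higher and 5 lower, with RBM5 (65.2 to 75.5 CPM in NTC and 94.6 to 102 CPM in KO) up and SRSF7 (238 to 247 CPM in NTC and 187 to 203 CPM in KO) down. Autophagy and lysosome genes were 17 higher and 8 lower of 49, with a median of 0.10 that turned to -0.009 with KO replicate 1 included.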
